A study of Drosophila melanogaster with 6 samples.

Results

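The genes described here are the cytosolic glutathione S-transferase (GST) genes and the UDP-glycosyltransferase (UGT) genes of Drosophila melanogaster, followed over the 6 arrays of the series. Members were the probe sets that the platform annotation gives to a single gene whose symbol starts with Gst and D, E, O, S, T or Z, or with Ugt. Where a gene had several probe sets, the one with the highest mean signal was used. The rule gave 69 genes of the 11982 on the array, 34 GST genes and 35 UGT genes, and read no difference between samples. Both families are read separately. Of the 70 genes whose symbols match the rule in the RefSeq gene table, GstE8 was not analysed here.

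Whole adult flies were taken 12 hours after an injection and hybridised to single-colour Affymetrix arrays, 1 array per group. The control genotype was gyc76c[revert], called revert here. The mutants were gyc76c[KG03723], called KG03723, with an allele of Gyc76C, which encodes a receptor guanylate cyclase, and spz[rm7], called rm7, which carries an allele of spz, the gene for the Toll ligand Spätzle. Each genotype received an injection of phosphate-buffered saline (PBS) or of the Gram-positive bacterium Staphylococcus saprophyticus. All flies were adults reared at 25C on cornmeal medium. The labels do not give the sex, the number of flies per array or whether an allele was homozygous.

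GSTs join the tripeptide glutathione to reactive, electrophilic compounds, including products of lipid peroxidation, and some reduce or isomerise substrates. The Delta (GstD) and Epsilon (GstE) classes are the expanded insect classes tied to xenobiotics and insecticide resistance, and the Omega, Sigma, Theta and Zeta classes are shared with other animals. UGTs sit in the membrane of the endoplasmic reticulum and move a sugar, in insects mostly glucose, from a UDP-sugar onto small lipophilic molecules. In the fly both families are used in the gut, the Malpighian tubules and the fat body, and some UGTs in the antennae. The cap'n'collar (cnc) transcription factor and its partner Keap1 control many GST genes.

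Signals are the authors' MAS5 values in arbitrary units, with each array at the same trimmed mean. A signal under 42.7, the 40th percentile of all values, counted as under the floor and was set to it before log2 was taken. Comparisons of single arrays have no replicates and no p-value. Genotypes were tested with an additive limma fit of genotype and injection over the 6 arrays, with 2 residual degrees of freedom, for 9540 genes, those over the floor on 3 or more arrays. The error of that fit is the departure from additivity, and its p-values, adjusted by the Benjamini-Hochberg method over all 9540 genes, are called past the threshold under 0.05. In whole flies, fewer cells of a type and less RNA per cell cannot be told apart.

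The GST family was the more widely detected. Of 34 GST genes 28 were above the floor on all 6 arrays, 5 on some and 1, GstD6, on none. Of 35 UGT genes 19 were above it on all arrays, 8 on some and 8 on none. Over all genes these counts were 8784, 1321 and 1877 of 11982. Mean signals over 1000 were reached by 14 GST genes and by 1 UGT gene. Brightness depends on the probes as well as on the transcript, so levels are read within a probe set, and the order of genes is no order of transcript amounts.

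**Figure D1:**
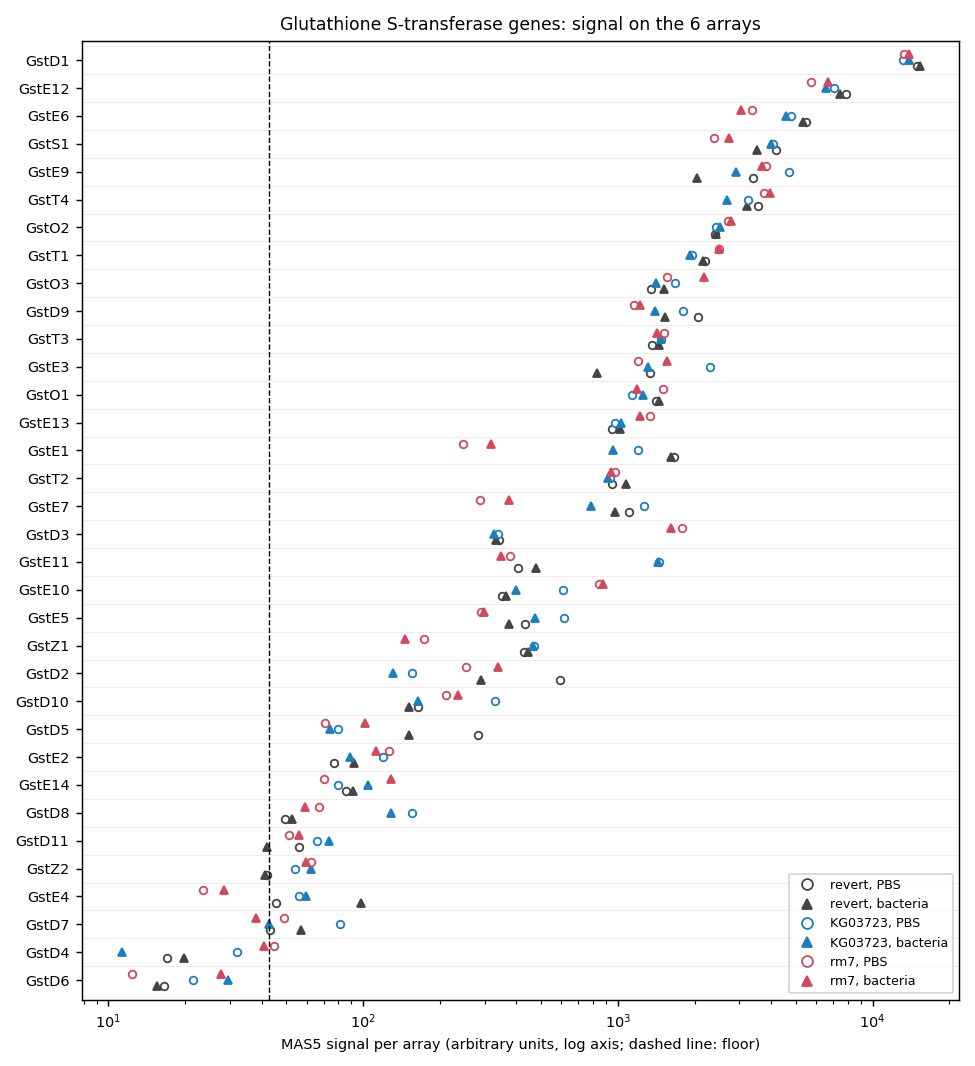
MAS5 signal (log axis, arbitrary units) of the 34 GST genes, ordered by mean signal, with 1 point per array. Colours give the genotype, open circles PBS and triangles bacteria, and the dashed line is the floor of 42.7. The 3 genotypes lie close together for the brightest gene GstD1, while rm7 stands apart at GstE1, GstE7, GstD3 and GstZ1 and KG03723 at GstE11.

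The brightest members of each family are given next. GstD1, a Delta GST that breaks down DDT and serves as a reporter of cnc activity, read 15002 and 15287 in revert after PBS and bacteria, 13202 and 13847 in KG03723, and 13332 and 13888 in rm7. Its highest signal was 1.16 times its lowest. GstE12 read 7844 and 7424 in revert, 7073 and 6551 in KG03723, and 5709 and 6672 in rm7. GstE6, GstS1 and GstE9 followed in mean signal and varied more, with highest signals 1.80, 1.75 and 2.28 times their lowest, and are described with their comparisons. The 3 Omega genes and 4 Theta genes that the symbol rule gave stayed within 1.62-fold of their own lowest signal. Among them GstO2, of the Omega class whose enzymes can reduce dehydroascorbate, lay between 2415 and 2782, and GstT3 between 1366 and 1513. For UGTs the brightest was Ugt316A1, at 1476 and 1467 in revert, 1347 and 1338 in KG03723 and 1426 and 1264 in rm7, followed by Ugt302C1, between 792 and 1040.1. The next UGT gene was Ugt35C1, described with rm7. Of the genes in these sentences, GstD1, GstE12, the Omega and Theta genes, Ugt316A1 and Ugt302C1 did not pass the threshold in any of the 4 tests.

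The comparison of rm7 with revert asks what differs in flies mutant for the Toll ligand. The control is named for gyc76c, and the series holds no separate control for spz[rm7]. An effect of the spz allele and any other difference between rm7 and revert flies therefore cannot be told apart. In the limma fit 2 of 32 tested GST genes were higher and 4 lower in rm7, and 2 of 25 tested UGT genes were higher and 3 lower. Over all genes 5.61% passed in either direction, 2.61% higher and 3% lower. A member that passes the filter only through the genotypes where it is high had to differ, as did Ugt37A2. Among members above the floor on all arrays the counts were 6 of 28 GST genes and 4 of 19 UGT genes, where all such genes gave 5.4%. The median absolute log2 difference of those members was 0.42 for GSTs and 0.47 for UGTs, and 0.18 for all such genes. The signed medians over tested members were near 0, at -0.01 for GSTs and 0.17 for UGTs, against 0.03 for all genes.

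**Figure D2:**
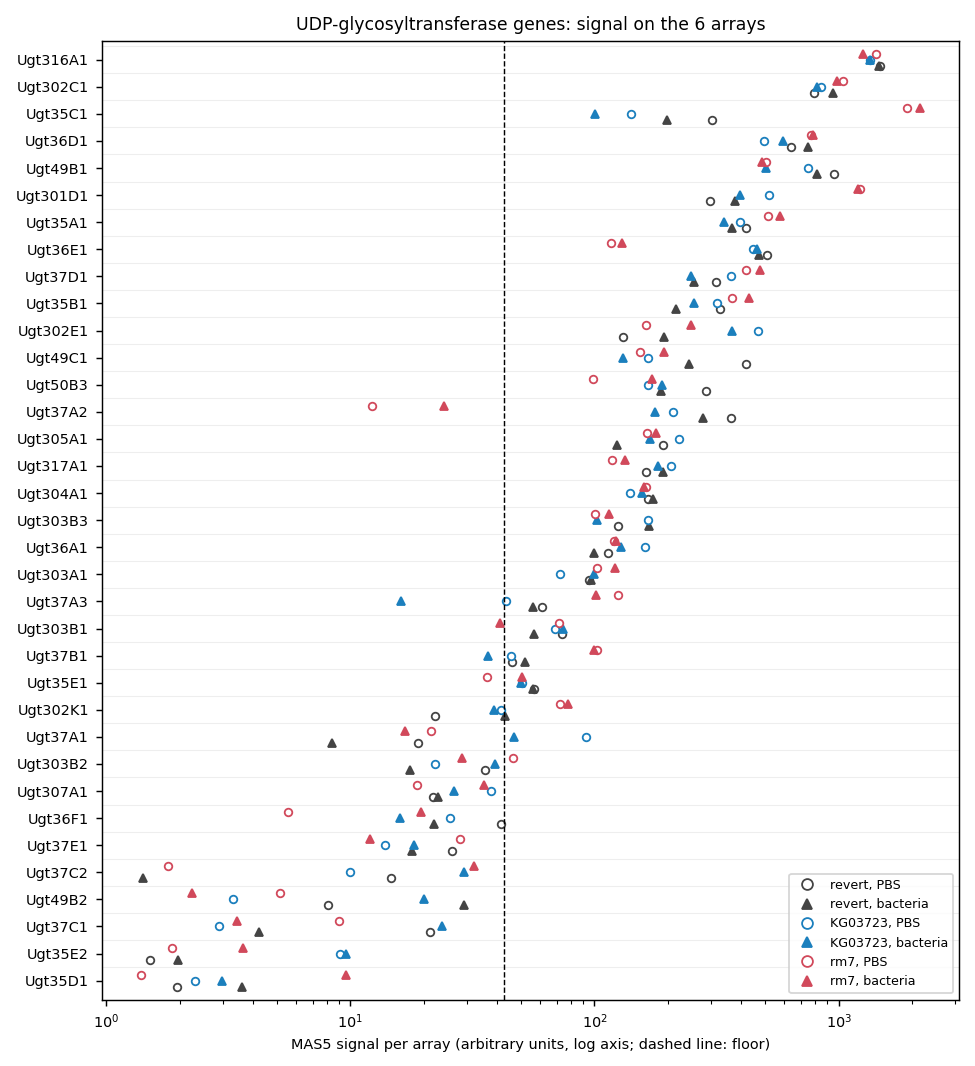
MAS5 signal (log axis, arbitrary units) of the 35 UGT genes, ordered by mean signal, with 1 point per array and colours and symbols for genotype and injection. The dashed line is the floor of 42.7. Both rm7 points lie far to the right of the others at Ugt35C1 and Ugt301D1 and far to the left at Ugt36E1 and Ugt37A2, and 8 genes at the bottom are under the floor on every array.

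Of the GST genes higher in rm7, GstD3, a Delta class gene, had the larger difference. It read 340.2 and 333 in revert after PBS and bacteria, 338 and 327 in KG03723, and 1787 and 1622 in rm7. The 4 arrays of revert and KG03723 were nearly equal, and both rm7 arrays lay far above them. The fitted log2 difference was 2.34 ± 0.15 (SE), 5.06-fold, with a limma adjusted p of 0.000631. GstE10, an Epsilon class gene, read 352 and 364 in revert, 611 and 399.5 in KG03723, and 842 and 878 in rm7. Its rm7 arrays lay above the other 4 (log2 1.26 ± 0.22, limma adjusted p = 0.0203). That call was lost without the rm7 PBS array (limma adjusted p = 0.0812) and without the rm7 bacteria array (limma adjusted p = 0.149).

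The lower GST genes were 3 of the Epsilon class and 1 of the Zeta class. GstE1, whose enzyme can conjugate the lipid peroxidation product 4-hydroxynonenal, read 1656 and 1617 in revert, 1198 and 958 in KG03723, and 246 and 318 in rm7. Both rm7 arrays were far under the lowest of the others, and the fit gave a log2 difference of -2.55 ± 0.19 (limma adjusted p = 0.000855). GstE7 read 1104 and 973 in revert, 1267 and 786 in KG03723, and 289 and 374 in rm7. The groups did not overlap (log2 -1.66 ± 0.25, limma adjusted p = 0.0123), and without the rm7 PBS array the limma adjusted p was 0.061.

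GstE6, a bright Epsilon gene, was lower by a smaller factor. It read 5475 and 5317 in revert, 4777 and 4565 in KG03723, and 3366 and 3041 in rm7, so the 3 genotypes formed 3 separate levels. The log2 difference of rm7 was -0.75 ± 0.10 (limma adjusted p = 0.00738). GstZ1 belongs to the Zeta class, which in mammals holds the maleylacetoacetate isomerase of tyrosine breakdown. It read 430.2 and 444 in revert, 467 and 465 in KG03723, and 174 and 146 in rm7. The rm7 arrays lay far under the other 4 (log2 -1.45 ± 0.20, limma adjusted p = 0.00962), and without the rm7 bacteria array the limma adjusted p was 0.0567. Its neighbour GstZ2 was near the floor on every array, between 41.3 and 62.5.

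GstS1, the Sigma class GST that is abundant in flight muscle, lay just outside the threshold. It read 4182 and 3503 in revert, 4081 and 3998 in KG03723, and 2394 and 2724 in rm7. Both rm7 arrays were the lowest (log2 -0.58 ± 0.13, limma adjusted p = 0.0501). It passed with quantile normalization (limma adjusted p = 0.0383), with a pseudocount of 50 (limma adjusted p = 0.0483) and without the revert bacteria array (limma adjusted p = 0.023). Of 11 tested flight muscle markers 2 were lower in rm7 by the limma fit and 0 higher, where 3% of all genes were lower. The median log2 difference of the markers was -0.40 in rm7. In KG03723 it was -0.26, where that of GstS1 was 0.08. Their summed signal was 36529 to 36681 in revert, 30349.7 to 34303 in KG03723 and 24960.1 to 32867 in rm7, and none of the 11 was under the floor on all arrays. Their part in the GstS1 value was not tested.

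The largest positive difference of a UGT gene in rm7 was that of Ugt35C1. It is also known as Ugt86Dd, a gene linked to nicotine resistance in fly larvae. It read 303 and 199 in revert, 142 and 100.1 in KG03723, and 1910.5 and 2163 in rm7. The 3 genotypes did not overlap, with KG03723 lowest and rm7 highest. The rm7 difference from revert was 3.05 ± 0.24 on the log2 scale (8.28-fold, limma adjusted p = 0.00109). Ugt301D1 read 297 and 375 in revert, 519 and 394 in KG03723, and 1218 and 1200.0 in rm7. Its rm7 arrays lay above the rest (log2 1.86 ± 0.21, limma adjusted p = 0.00424), and the call was lost without the rm7 PBS array (limma adjusted p = 0.0567) or the rm7 bacteria array (limma adjusted p = 0.0598).

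Among lower UGT genes, Ugt37A2 read 361 and 279 in revert, 210.1 and 177 in KG03723, and 12.3 and 24.2, both under the floor, in rm7. It was therefore at least 8.45-fold lower after PBS and at least 6.52-fold lower after bacteria. The fitted difference of -2.89 ± 0.25 (limma adjusted p = 0.00161) depends on the floor. Ugt36E1, a UGT of the antennae with a role in pheromone detection in the fly, read 508 and 474 in revert, 446 and 464 in KG03723, and 117 and 129 in rm7. Its revert and KG03723 arrays were close together and both rm7 arrays far below (log2 -1.99 ± 0.20, limma adjusted p = 0.00305). The name of its probe set carries the suffix for probes shared by several transcripts, as do those of GstS1, Ugt37D1 and Ugt50B3. Of 5 tested antennal markers 0 passed the threshold, with a median log2 difference of 0.14 and summed signals of 3758 to 4112 in revert, 3827 to 5087 in KG03723 and 4652 to 5380.1 in rm7.

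Ugt49B1 was the weakest call. It read 956 and 812 in revert, 746 and 504 in KG03723, and 502 and 484 in rm7, so rm7 and the KG03723 bacteria array nearly met (log2 -0.84 ± 0.18, limma adjusted p = 0.0421). Without each array in turn the call held in 1 of 6 fits. The limma adjusted p was 0.0913 without revert PBS, 0.154 without revert bacteria, 0.0504 without KG03723 PBS, 0.142 without rm7 PBS and 0.0725 without rm7 bacteria. A fit with no filter on dim genes, over all 11982 genes, lost every member call named here for rm7 except that of GstD3. It called 13 genes higher and 4 lower in all. Without the rm7 bacteria array fewer GST and UGT genes were called higher, and without the rm7 PBS array fewer UGT genes. Fewer of all genes were called higher in both fits.

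**Figure D3:**
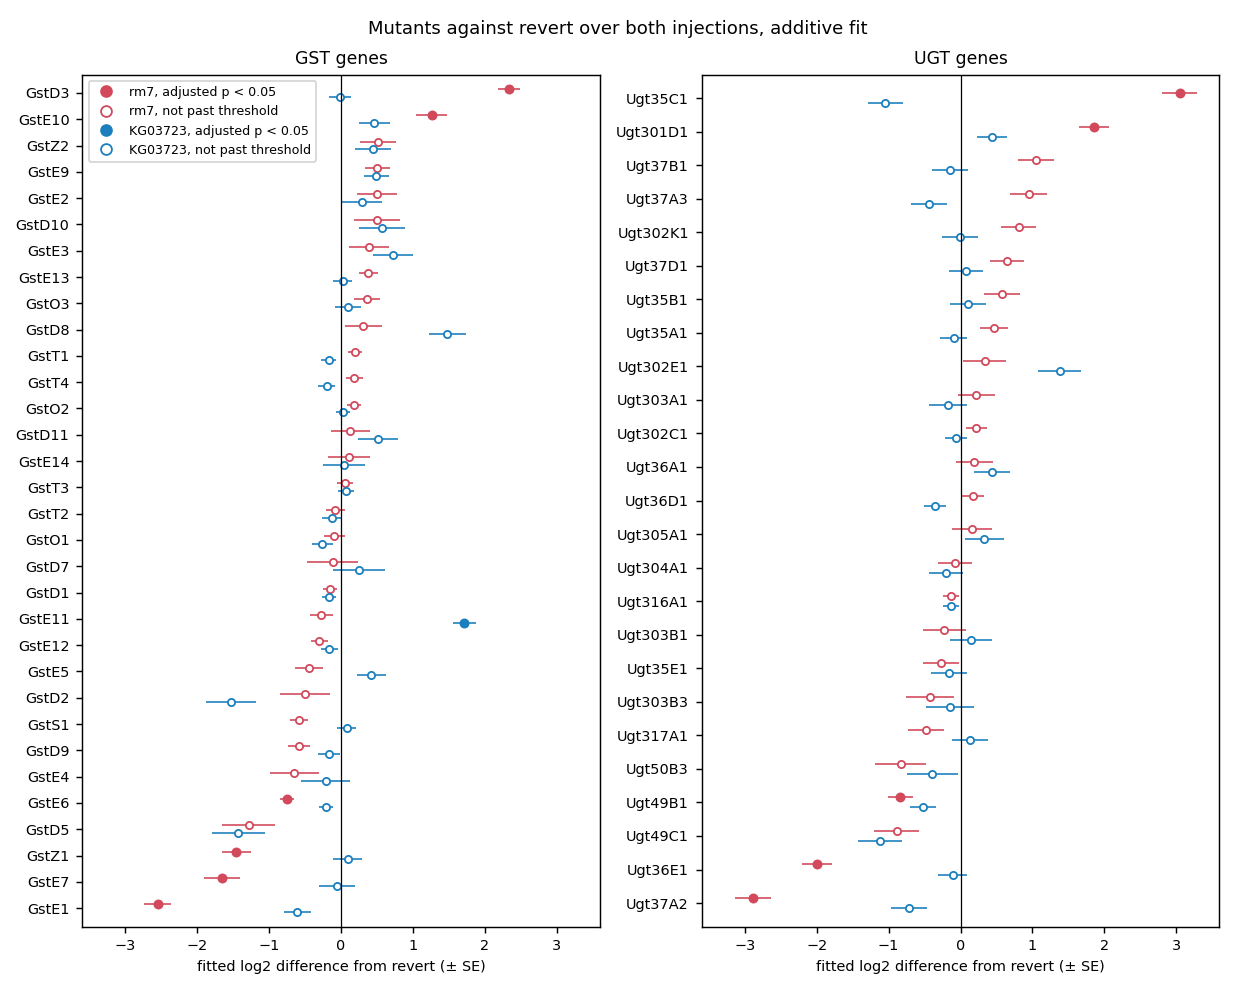
Fitted log2 difference from revert over both injections (points, with the SE as bars) for the 32 tested GST genes and the 25 tested UGT genes, rm7 in red and KG03723 in blue. Filled points passed a limma adjusted p of 0.05. Both mutants are set against the same revert arrays. The filled rm7 points reach from -2.89 for Ugt37A2 to 3.05 for Ugt35C1, and the single filled KG03723 point is GstE11 at 1.72. The Ugt37A2 value depends on the floor.

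Between single arrays, at least 2-fold differences from revert were found in rm7 for 2 GST genes higher and 5 lower of 33 measured after PBS, and for 4 UGT genes higher and 4 lower of 27. Of all genes 2.51% were higher and 4.16% lower by that measure. After bacteria 2 GST genes were higher and 4 lower, and 2 UGT genes higher and 2 lower, against 5.42% and 2.87% of all genes. The members that reached 2-fold after PBS only were GstD2, GstD5, Ugt49C1 and Ugt50B3 on the lower side, and Ugt37A3 and Ugt37B1 on the higher side. GstE4 did so after bacteria only. It read 45.7 and 98.5 in revert, 55.9 and 59.6 in KG03723, and 23.5 and 28.5, under the floor, in rm7, at least 2.31-fold lower after bacteria. Both rm7 arrays lay above the other 4 for 6 GST and 11 UGT genes, and below them for 9 GST and 4 UGT genes. For all genes these shares were 17.9% above and 10.7% below.

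The comparison of KG03723 with revert asks what differs in flies mutant for the receptor guanylate cyclase. Here 1 member passed, the Epsilon class gene GstE11. It read 405 and 476 in revert, 1452 and 1432 in KG03723, and 378 and 349 in rm7. Both KG03723 arrays stood far above all others, and rm7 was the lowest. The log2 difference from revert was 1.72 ± 0.16, 3.28-fold, with a limma adjusted p of 0.00579. Without the KG03723 PBS array the limma adjusted p was 0.0667, and with no filter on dim genes the call was lost as well. In all, 1 of 32 GST genes was higher and 0 lower, and 0 of 25 UGT genes passed. At an unadjusted p under 0.05 there were 7 of 32 GST genes and 5 of 25 UGT genes, against 813 of 9540 genes. Of all genes 1.37% passed in either direction, 0.681% higher and 0.692% lower, and 1.3% of those above the floor on all arrays. The counts of called members changed without the revert PBS, the revert bacteria or the KG03723 PBS array. Those of all genes changed in the same fits. The median log2 difference was 0.04 for GSTs and -0.13 for UGTs, against -0.0049 for all genes.

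Several Delta genes had large ratios in KG03723 that did not pass. GstD2 read 591 and 291 in revert, 155 and 132 in KG03723, and 254 and 339.7 in rm7. GstD5 read 283 and 151 in revert, 79.9 and 74.2 in KG03723, and 71.0 and 102 in rm7. For both genes the revert PBS array was the highest by a wide margin and the KG03723 arrays were low. The fitted log2 differences were -1.54 ± 0.35 (limma adjusted p = 0.133) for GstD2 and -1.43 ± 0.37 (limma adjusted p = 0.187) for GstD5. GstD8 went the other way, at 49.4 and 52.5 in revert, 155 and 129 in KG03723, and 67.0 and 59.1 in rm7. Its KG03723 arrays were the only 2 over 100 (log2 1.48 ± 0.26, limma adjusted p = 0.0551). Without the revert PBS array the GstD8 limma adjusted p was 0.0491, and without the revert bacteria array 0.00494. GstD10 read 165 and 151 in revert, 331 and 165 in KG03723, and 211 and 237 in rm7.

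UGT genes with large ratios in KG03723 were Ugt302E1 and Ugt49C1. Ugt302E1 read 131 and 192 in revert, 468 and 366 in KG03723, and 162 and 249 in rm7, so KG03723 was the highest (log2 1.38 ± 0.30, limma adjusted p = 0.114). Ugt49C1 read 417 and 243 in revert, 165 and 130.5 in KG03723, and 154 and 193 in rm7, so revert was the highest (log2 -1.12 ± 0.31, limma adjusted p = 0.23). Ugt37A1, which was not tested, read 18.8 and 8.4 in revert, 92.7 and 46.8 in KG03723, and 21.5 and 16.7 in rm7, above the floor only in KG03723. It was at least 2.17-fold higher than in revert after PBS. The fitted Ugt35C1 difference was -1.04 ± 0.24 (limma adjusted p = 0.142), and without the revert bacteria array its limma adjusted p was 0.0181. After PBS a 2-fold difference was reached by 3 GST genes upward and 2 downward and by 2 UGT genes upward and 2 downward, where 1.72% and 1.33% of all genes were. After bacteria these counts were 2 and 2 for GSTs and 0 and 0 for UGTs, against 2.17% and 1.24%. Both KG03723 arrays lay above the other 4 for 5 GST and 3 UGT genes and below them for 3 and 5, where 6.96% of all genes were above and 9.05% below. Both revert arrays lay above the others for 5 GST and 7 UGT genes and below them for 4 and 2, where 7.37% and 8.02% of all genes did.

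The direct test of rm7 against KG03723 asked where the mutants differ from each other. It called 1 GST gene higher and 7 lower in rm7, and 4 UGT genes higher and 2 lower, where 6.11% of all genes passed, 2.68% as higher and 3.43% as lower. The 2 lower UGT genes include Ugt37A2, which passed the filter only through revert and KG03723, where it is high, and so had to differ. Of members above the floor on all arrays 8 of 28 GST genes and 3 of 19 UGT genes passed, where 5.86% of all such genes did. The difference was 4.09 ± 0.24 on the log2 scale for Ugt35C1 (17.1-fold, limma adjusted p = 0.00038), the largest of any member. It was 2.36 ± 0.15 for GstD3 (limma adjusted p = 0.000488), -1.99 ± 0.16 for GstE11 (limma adjusted p = 0.00104), -1.94 ± 0.19 for GstE1 (limma adjusted p = 0.00216) and -1.88 ± 0.20 for Ugt36E1 (limma adjusted p = 0.00335). These 5 calls held without each array in turn, and all but that of GstD3 were lost with no filter on dim genes.

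The other calls between the mutants were less firm. GstE7, GstZ1 and Ugt301D1 passed with limma adjusted p values of 0.0134, 0.00742 and 0.0107. Ugt37A2 was also called, but it was under the floor in rm7 and had to differ. GstS1, GstE6, Ugt37A3, Ugt37B1 and GstD8 passed with limma adjusted p values of 0.0311, 0.0228, 0.0255, 0.0417 and 0.0481. Ugt37A3 read 60.9 and 56.0 in revert, 43.5 and 16.1 in KG03723, and 125 and 101 in rm7. Ugt37B1 read 45.9 and 51.9 in revert, 45.7 and 36.7 in KG03723, and 103 and 99.5 in rm7. Both genes sit near the floor in KG03723 and about 100 in rm7, and the floor enters their fitted differences. Without the KG03723 PBS, the KG03723 bacteria or the rm7 PBS array, fewer GST genes were called lower and fewer UGT genes higher. Fewer UGT genes were also called higher without the rm7 bacteria array, and lower without the KG03723 PBS array. More GST genes were called higher without the revert PBS or the revert bacteria array. The counts over all genes moved the same way in these fits.

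The response to the bacterium was tested as a shared effect over the 3 genotypes. No member passed in the limma fit, as for all genes, of which 0% passed. At an unadjusted p under 0.05 there were 1 of 32 GST genes and 0 of 25 UGT genes, against 347 of 9540 genes. The median log2 difference was -0.06 for GSTs, -0.03 for UGTs and -0.01 for all genes. The error of this fit includes responses that differ between genotypes.

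Within single genotypes few members reached 2-fold. In revert GstD2 was 2.03-fold lower after bacteria, at 291 against 591, and GstE4 was 2.16-fold higher, at 98.5 against 45.7. For all genes 3.42% were lower and 0.584% higher. In KG03723 GstD10 just passed the 2-fold limit, lower at 165 against 331, where 0.861% of all genes were lower and 0.475% higher. In rm7 no member reached 2-fold, where 0.327% of genes were lower and 0.623% higher. The UGT family had 0 genes at least 2-fold apart in any of the 3 genotypes. Median log2 ratios in revert, KG03723 and rm7 were 0, -0.07 and 0.04 for GSTs and -0.02, -0.17 and 0.11 for UGTs. For all genes they were 0, 0.01 and 0. These medians rest on 1 array per group and were not tested.

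**Figure D4:**
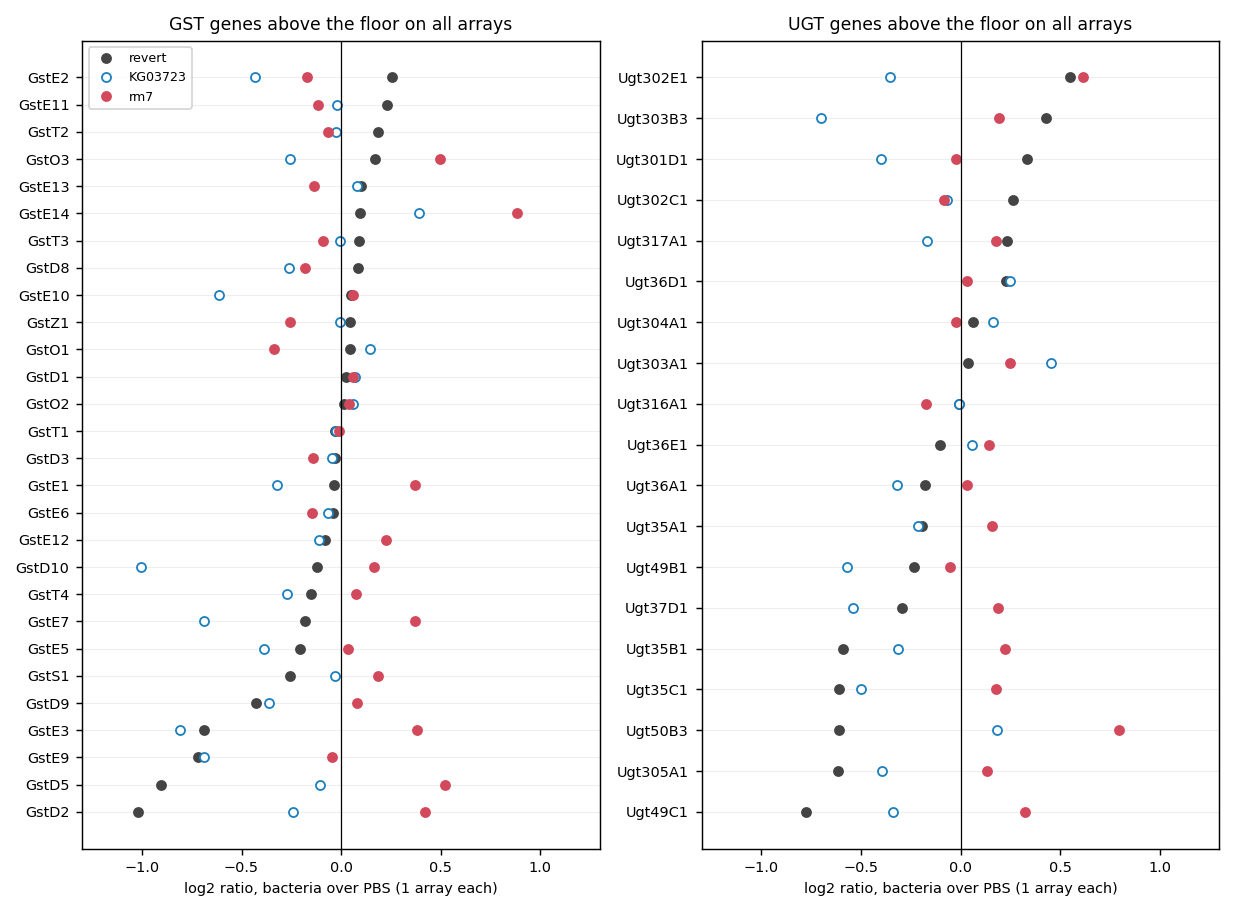
Log2 ratio of the bacteria array to the PBS array in each genotype for the 28 GST and 19 UGT genes above the floor on all 6 arrays, ordered by the ratio in revert. Each point is a ratio of 1 array to 1 array, with no error. GstE9 and GstE3 lie left of -0.6 in revert and KG03723, and in rm7 at -0.05 and 0.38.

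Smaller shifts ran in different directions by genotype. GstE9 read 3379.5 after PBS and 2053 after bacteria in revert, 4689.9 and 2911 in KG03723, and 3802 and 3679.6 in rm7. GstE3 read 1333 and 826 in revert, 2298 and 1310.5 in KG03723, and 1203 and 1566 in rm7. Both Epsilon genes were lower after bacteria in revert and KG03723, by log2 values from -0.69 to -0.81. In rm7 the log2 ratio was -0.05 for GstE9 and 0.38 for GstE3. A second, dimmer GstE9 probe set, between 45.9 and 91.5, had ratios of 0.29 in revert and -0.06 in KG03723, so the direction for GstE9 in revert depends on the probe set. GstE14, known as Noppera-bo and needed for ecdysteroid synthesis, read 85.5 and 91.3 in revert, 79.5 and 104 in KG03723, and 70.0 and 129 in rm7. The differences between genotypes were not tested. For the 28 GST genes above the floor on all arrays, the ratios in revert and KG03723 had a Pearson r of 0.36 across genes, and those in revert and rm7 one of -0.39. For all 8784 such genes the values were 0.28 and -0.32, so the GST values were near those of all genes. For the 19 UGT genes they were 0.12 and -0.22. Between KG03723 and rm7 the values were -0.09 for GSTs, 0.06 for UGTs and -0.17 for all genes. Genes of an array share its RNA and its scaling and are not independent.

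Marker lists of other tissues differed between the same arrays. The testis list (16 of 16 tested) had a median log2 ratio of -0.94 after bacteria in revert, -0.05 in KG03723 and 0.63 in rm7. The male accessory gland list (17 of 17 tested) had medians of -0.65, -0.04 and 0.49, and the fat body list (8 of 9 tested, with Fbp1 under the floor throughout) -0.50, -0.81 and 0.02. Summed testis signals were 13975 to 25822 in revert, 22176 to 22269 in KG03723 and 15934 to 24385 in rm7. Summed accessory gland signals were 59701 to 92374, 68360.5 to 72630.2 and 49683 to 67193, and summed fat body signals 29114 to 44090, 34489.9 to 56022 and 46478 to 46960.0. Their part in the bacterial ratios of the GST and UGT genes was not tested.

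Markers of tissues that use GSTs and UGTs, and of other tissues, were also compared between genotypes. Over all genes 2.61% were called higher and 3% lower in rm7, and 0.681% higher and 0.692% lower in KG03723. Of 18 tested digestive genes of the midgut, 4 were lower in rm7 and 0 higher, with a median log2 difference of -0.45, and 5 were lower and 1 higher in KG03723, with a median of -0.47. Their summed signals were 174758 to 196322 in revert, 136858 to 138177 in KG03723 and 129776 to 149593 in rm7. Malpighian tubule markers (5 of 9 tested) had 0 calls in either mutant and medians of 0.27 in KG03723 and 0.35 in rm7, with sums of 2588 to 2979 in revert, 2617 to 2839 in KG03723 and 2756 to 3281 in rm7. The fat body list had medians of 0.36 and 0.51, with 1 gene higher in rm7. Eggshell genes (14 of 17 tested) had 5 higher and 2 lower in rm7 and 3 higher in KG03723, with a median of -0.67 in rm7 against the direction of most of its calls and of 0.29 in KG03723, and summed signals of 114104 to 117471 in revert, 136473 to 146009 in KG03723 and 95119 to 118161 in rm7. The accessory gland list had 3 genes lower in rm7 and 0 higher, and the testis list 0 calls in either mutant. Plasmatocyte markers (8 of 8 tested) had 0 calls, with sums of 5444 to 5858, 4825 to 7311 and 5116 to 5422. The part of these tissues in the GST and UGT differences was not tested.

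Many members lie side by side in the genome, per the gene order of the RefSeq table. The 11 GstD genes form a tandem cluster on chromosome arm 3R, 9 GstE genes one on 2R, and 10 UGT genes, all of which carry Ugt86D names among their synonyms, one on 3R. Their fitted differences in rm7 varied within a cluster. In the GstD cluster GstD3 was the only gene called, and its neighbour GstD2 had a log2 difference of -0.50. In the GstE cluster GstE10 was called higher and the adjacent GstE1 lower, GstE6 and GstE7 lower, and the rest lay between -0.65 and 0.51 without passing. In the Ugt86D cluster Ugt35C1 was the only gene called of 9 tested, and the others lay between -0.27 and 0.81. Ugt37A2 and its direct neighbour Ugt37A3 had opposite signs, at -2.89 and 0.95, the second not past the threshold. The Ugt37A2 value depends on the floor, and the filter meant that this gene had to differ. Ugt36E1 was called while the adjacent Ugt36D1, at 0.17, was not. Tandem copies share sequence, so that signal from a close copy in a probe set cannot be told from that of the gene itself.

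The other genes of these clusters were mostly dim or differed little. In the GstD cluster GstD9 read 2064 and 1536 in revert, 1797 and 1400.4 in KG03723, and 1155 and 1220.1 in rm7, where both rm7 arrays were the lowest without passing (limma adjusted p = 0.0872). GstD7 read 43.0 and 57.3 in revert, 81.2 and 42.9 in KG03723, and 49.1 and 38.0 in rm7. GstD11 read 56.1 and 42.0 in revert, 66.2 and 73.6 in KG03723, and 51.0 and 56.3 in rm7. These 2 genes lay near the floor on most arrays. GstD4 read 17.0 and 19.7 in revert, 32.0 and 11.3 in KG03723, and 44.6 and 40.8 in rm7, above the floor on 1 array. GstD6 lay between 12.4 and 29.6, under it throughout.

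In the GstE cluster GstE2 read 77.1 and 92.0 in revert, 120.1 and 89.0 in KG03723, and 127 and 113 in rm7. GstE5 read 433 and 375 in revert, 617 and 472 in KG03723, and 291 and 298 in rm7. For GstE5 the 3 genotypes did not overlap, with KG03723 highest and rm7 lowest, and no test passed.

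In the Ugt86D cluster Ugt35A1 read 419 and 367 in revert, 395 and 340.3 in KG03723, and 512 and 573 in rm7. Ugt35B1 read 326 and 217 in revert, 318 and 256 in KG03723, and 367 and 429 in rm7. Both had their highest signals in rm7 without passing. Ugt302C1 read 792 and 952 in revert, 850.4 and 812 in KG03723, and 1040.1 and 982 in rm7. Ugt303A1 read 94.5 and 97.1 in revert, 72.6 and 99.5 in KG03723, and 103 and 122 in rm7. Ugt304A1 read 166 and 174 in revert, 139 and 156 in KG03723, and 162 and 159 in rm7. None of these 3 genes passed in any test. Ugt302K1 read 22.3 and 43.0 in revert, 41.5 and 38.9 in KG03723, and 72.2 and 77.9 in rm7, above the floor in both rm7 arrays and the revert bacteria array. Ugt35E1 read 56.4 and 55.8 in revert, 50.4 and 50.0441 in KG03723, and 36.4 and 50.6 in rm7. Ugt35E2 was under the floor on every array, at most 9.56.

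Beside Ugt36E1, Ugt36D1 read 639 and 749 in revert, 496 and 590.0 in KG03723, and 771 and 788 in rm7, and Ugt36F1 was under the floor throughout, at most 41.6. On the same arm Ugt37D1 read 314 and 257 in revert, 362 and 249 in KG03723, and 416 and 475 in rm7. Its neighbours Ugt37C2 and Ugt37E1 were under the floor on every array, at most 32.1 and 28.2.

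Called members were spread over chromosome arms. On 2R 5 of 20 tested members were called in rm7, on 3R 4 of 24, on 2L 2 of 6, and on 3L 0 of 5 and on X 0 of 2. The 4 on 3R include Ugt37A2, which had to differ. Over all genes the shares called were 6.75% on 2R, 5.10% on 3R, 5.98% on 2L, 6.21% on 3L and 3.79% on X.

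The pathway around both families was read from lists of related genes. Over all genes 2.61% were called higher and 3% lower in rm7. Of 11 tested enzymes of glutathione synthesis and use, 1 was higher in rm7 and 0 lower, with a median log2 difference of -0.01. The gene was Mgstl, a microsomal GST outside the cytosolic family. It read 5192 and 4619 in revert, 5031 and 4726 in KG03723, and 7069 and 7197 in rm7 (log2 0.54 ± 0.10, limma adjusted p = 0.0283). Of 5 tested regulators, cnc and Keap1 among them, 0 passed in rm7 or KG03723, with medians of -0.01 and 0.02.

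A chosen list of 15 tested cytochrome P450 and epoxide hydrolase genes reported to respond to xenobiotics, whose enzymes oxidise or hydrolyse substrates ahead of conjugation, had 3 genes higher and 3 lower in rm7, where 5.61% of all genes passed. In KG03723 1 was lower, where 1.37% passed. The list does not hold all P450 genes of the array. Cyp28d1 read 1194 and 823 in revert, 1384 and 638 in KG03723, and 4292 and 4651 in rm7 (log2 2.17 ± 0.26, limma adjusted p = 0.00541). Cyp9b2 read 5238 and 3795 in revert, 3467 and 2276 in KG03723, and 905 and 961 in rm7 (log2 -2.26 ± 0.17, limma adjusted p = 0.000968). In both P450 genes the rm7 arrays stood apart from the other 4. Cyp12d1-d read 1365 and 804 in revert, 1731 and 914 in KG03723, and 18.1 and 25.6, under the floor, in rm7 (limma adjusted p = 0.000426). It passed the filter only through revert and KG03723, where it is high, so it had to differ, as did Ugt37A2. The floor enters its fitted difference. Cyp6w1 read 846 and 472 in revert, 3197 and 728 in KG03723, and 3345 and 3416 in rm7 (log2 2.42 ± 0.43, limma adjusted p = 0.024). Its KG03723 PBS array was close to the rm7 arrays. Cyp4p1, the gene lower in KG03723, was also among those lower in rm7. It read 631 and 464 in revert, 194 and 175 in KG03723, and 251 and 266 in rm7. The log2 difference was -1.55 ± 0.22 in KG03723 (limma adjusted p = 0.0287) and -1.07 ± 0.22 in rm7 (limma adjusted p = 0.0433).

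Of all genes 3% were lower in rm7, and of 3 tested genes for the supply of UDP-sugars 1 was. It was sgl, which encodes the UDP-glucose dehydrogenase that makes UDP-glucuronic acid. It read 1928 and 1877 in revert, 1533 and 1677 in KG03723, and 1159 and 1082 in rm7 (log2 -0.76 ± 0.12, limma adjusted p = 0.0144). Of 5 transporters that can export conjugates, 1 was lower in KG03723, where 0.692% of all genes were. The gene was Mdr50, an ABC transporter gene. It read 159 and 173 in revert, 50.1 and 57.6 in KG03723, and 159.6 and 239 in rm7 (log2 -1.63 ± 0.26, limma adjusted p = 0.0403). Its KG03723 arrays were the lowest of the 6 and lay close to the floor of 42.7.

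Genes with the most similar profile were sought among all genes above the floor on all arrays other than the called members of that profile, by Pearson r over the 6 arrays with the mean profile of those members. For the 2 GST genes higher in rm7 the first 5 were CG10799 (r = 0.999), NaPi-III, CG10467, CG4822 and CG14275, and for the 2 higher UGT genes CG12766 (r = 0.998), CG6707, Drsl4 and the P450 genes Cyp4d1 and Cyp9h1, of 8782 genes searched. For the 4 lower GST genes they were CG4653 (r = 0.996), CG30371, Pisd, 2mit and CG7966, of 8780 genes. For the 3 lower UGT genes they were rst (r = 0.997), RNaseX25 (0.995), the GST gene GstE1 (0.993) and the P450 genes Cyp9b2 (0.992) and Cyp6a13 (0.991). With 6 arrays and so many genes such values are a description only.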

How the data were processed

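The deposited values are linear intensities, 1 for each probe set on each array, from MAS5 according to the submitters' processing notes, with no version stated there. Of 18952 probe sets, 183 are controls, and the annotation lists 1 gene for 13647, several for 402 and none for 4720. Symbols were checked in the RefSeq table of assembly Release 6, and 0 changed. Of the members, 2 had more than 1 probe set. Intensities were floored at 42.7, and log2 values fitted with limma 3.58.1 in R 4.3.3 (lmFit, eBayes with a variance trend, Benjamini-Hochberg). With 1 array per group, folds between arrays have no error, and a fold against an array under the floor is written "at least". The number of arrays limits precision. The fit was also run on simulated data that were additive, with no floor or filter applied. That run cannot speak to responses that differ between genotypes or to floored values.

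The members, lists and tests were chosen with earlier results of these data known. Values in every array are given for members past the threshold, at least 2-fold apart, among the 3 brightest of a family or in a described cluster. Of 16 listed glutathione genes, 3 were older names of members and were dropped. Other settings tried were normalization by quantiles or by cyclic loess, a lower or higher floor (20th or 60th percentile), a pseudocount of 50, the mean over probe sets, no variance trend, no filter, a 3-fold threshold, and fits without each array or genotype. Sequences are not shown here.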

Additional observations from a re-analysis of the deposited data

Results flagged for a closer look

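The bacterial response of 2 members went in opposite directions in revert and rm7 by at least 0.5 on the log2 scale each way, with all 4 arrays above the floor. GstD5 had a log2 ratio of -0.91 in revert and 0.52 in rm7. Ugt50B3 had a log2 ratio of -0.61 in revert and 0.80 in rm7, from signals of 287 and 188 in revert, 166 and 188 in KG03723, and 99.0 and 172 in rm7. Each ratio rests on 1 array per group, the size of 0.5 was chosen after the data were seen, and no difference between the genotypes was tested.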

How the results depend on the processing

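Of 528 family counts and medians recomputed under an alternative, 445 stayed within 1.5 times the reported count or within 0.171 (the median residual SD of the fit) of the reported median, and 83 did not. Of 976 values of single called members, 0 turned direction past the threshold, 76 lost a call and 10 gained one. The cause was not tested unless the alternative itself changes which genes or arrays enter. With no filter on dim genes, KG03723 GST genes higher numbered 0 and rm7 members against revert 1 GST gene higher, 0 lower and 0 UGT genes, and against KG03723 0 GST genes lower and 0 UGT genes in either direction. Over all 11982 genes that fit called 0 higher and 1 lower in KG03723 than in revert. For rm7 these counts were 13 and 4 against revert, and 26 and 8 against KG03723. Without the variance trend, rm7 had 1 GST gene higher and 2 lower than revert, and 4 lower than KG03723. Of all 9540 genes, 130 were higher and 155 lower than revert, and 186 lower than KG03723. The floor at the 60th percentile left 2 UGT genes higher and 1 lower in rm7 than in KG03723, where 188 and 256 of 6565 genes were.

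Leaving out each array in turn, GST genes higher in KG03723 than in revert ranged from 0 to 3, lower from 0 to 2, UGT genes higher from 0 to 1 and lower from 0 to 2. For rm7 against revert these ranges were 1 to 3, 3 to 6, 1 to 2 and 2 to 4, and for rm7 against KG03723 1 to 3, 2 to 8, 1 to 4 and 1 to 3. Without the revert genotype 3 GST genes were higher in rm7 than in KG03723, where 414 of 9540 genes were. For bacteria no member was called in any such fit. The counts over all genes also moved when single arrays were left out.

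Counts of members at least 2-fold apart are small and rest on the floor and the threshold. In the following lists each pair is GST then UGT where both moved. At 3-fold, revert bacteria gave 0 GST genes higher and 0 lower and KG03723 bacteria 0 lower. At 3-fold KG03723 after PBS gave 1 UGT gene higher and 0 lower and after bacteria 1 GST gene higher and 0 lower, and rm7 after PBS gave 1 and 2 higher and 3 and 2 lower and after bacteria 1 GST gene higher and 2 lower. Floor at the 60th percentile: revert bacteria gave 0 GST genes higher, KG03723 bacteria 0 lower, KG03723 after PBS 1 and 0 higher and 1 and 0 lower and after bacteria 1 GST gene higher and 0 lower, rm7 after PBS 2 UGT genes higher and 3 and 1 lower and after bacteria 2 and 0 lower, and the UGT median in revert bacteria was -0.21. Floor at the 20th percentile: revert bacteria gave 1 UGT gene higher and 1 lower, KG03723 bacteria 2 GST genes lower and 2 UGT genes higher and 1 lower, rm7 bacteria 1 and 1 higher and 1 UGT gene lower, KG03723 after bacteria 4 UGT genes higher and 1 lower, and the GST median of rm7 after bacteria was 0.18. With the pseudocount, revert bacteria gave 0 GST genes higher and 0 lower, KG03723 bacteria 0 lower, KG03723 after PBS 1 UGT gene lower and after bacteria 1 GST gene higher and 0 lower, and rm7 after PBS 2 UGT genes higher. Quantile and cyclic loess normalization each gave 0 GST genes lower in revert bacteria and 1 UGT gene lower in KG03723 after bacteria, and cyclic loess 0 GST genes lower in KG03723 bacteria. The additive fit already sets bacteria against PBS within each genotype, and no further replicate block was fitted because the labels give no replicate numbers. Members near the floor have only bounds.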
